A study of Homo sapiens with 31 samples.

Results

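hsa-miR-23a-3p is a human microRNA (miRNA), and its interactome here is every target region that was found ligated to it in Huh-7.5 cells, an established human hepatoma line. Its members are all rows of the deposited interaction table whose miRNA is hsa-miR-23a-3p, which gave 1092 of 32712 interactions, built from 1203 of 35811 chimeric reads. In the experiment, ultraviolet light cross-linked Argonaute (AGO), the protein that carries miRNAs, to the RNA it held, and a miRNA joined end to end to the RNA fragment beside it was read as a single chimeric sequence. The 31 libraries were all of Huh-7.5 cells. The standard protocol gave 19 of them, of which 4 came from cells given a locked nucleic acid against miR-122 (LNA-122), 4 from cells given miravirsen, 4 from mock-treated cells and 7 from cells with no named treatment. The CLEAR-CLIP protocol gave 12, with 2 libraries in each of 6 conditions that differ in RNAse (A at a low or high amount, or T1), in HSPC117 (over-expressed, knocked down by siRNA or neither) and in T4 RNA ligase, which was added in 2 libraries and left out in 10. The table pools all libraries and assigns no interaction to any of them. Treatments therefore could not be compared, no replicate error can be given, and each interval (95% Wilson unless named otherwise) and p-value below describes the sampling of interactions only. miR-23a-3p ranked 9th by number of interactions, and its counting interval (1028 to 1159, exact Poisson) overlapped those of its neighbours miR-122-5p with 1107 interactions and miR-27a-3p with 1066.

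A miRNA guides AGO to RNAs that pair with it. Pairing to positions 2 to 8 from its 5′ end, the seed, is the best known determinant of targeting, and pairing further along is called auxiliary. miR-23a-3p is made from a cluster on chromosome 19 together with miR-27a-3p and miR-24-3p. It has been studied for its effects on TGF-beta signalling and cell growth in liver and other cells. It has 2 close relatives with the same seed, shown here because they bound the question of what is particular to miR-23a-3p. The mature sequences are those of RefSeq (GRCh38.p14), 5′ to 3′, with the seed in capitals.
miR-23a-3p: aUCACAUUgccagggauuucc
miR-23b-3p: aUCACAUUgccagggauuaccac
miR-23c: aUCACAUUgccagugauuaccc
miR-23b-3p, made from chromosome 9, shares the first 18 bases with miR-23a-3p and then differs at U19A, counted from the 5′ end with the base of miR-23a-3p first. miR-23c, made from the X chromosome, differs at G14U and U19A. The full seed site in a target, the 8mer, is aaugugaa. The seed of miR-23a-3p holds 2 G or C among 7 bases, positions 9 to 15 hold 6 among 7, and positions 16 to 19 hold 0 among 4.

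The miR-23a-3p interactome held a recurring set of perfect 8mer sites inside the coding sequences of zinc finger genes. Of its 1092 interactions, 100 (9.16%, interval 7.59 to 11%) lay at 47 genes whose symbol begins with ZNF and a number, against 505 of 31620 (1.60%, 1.47 to 1.74%) for the other miRNAs. These genes encode transcription factors, many of them repressors of transposable elements, that bind DNA through an array of C2H2 zinc fingers. Among the 83 miRNAs with at least 50 interactions, the share at ZNF genes had a median of 1.61%, and the next highest after miR-23a-3p was 3.74% for miR-181b-5p (11 of 294). The relative miR-23b-3p, with too few interactions for that comparison, had 2 of 42 at ZNF genes (4.76%, 1.32 to 15.8%). This group of genes was picked after its values had been seen, so its shares are given as a description with no test.

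**Figure D1:**
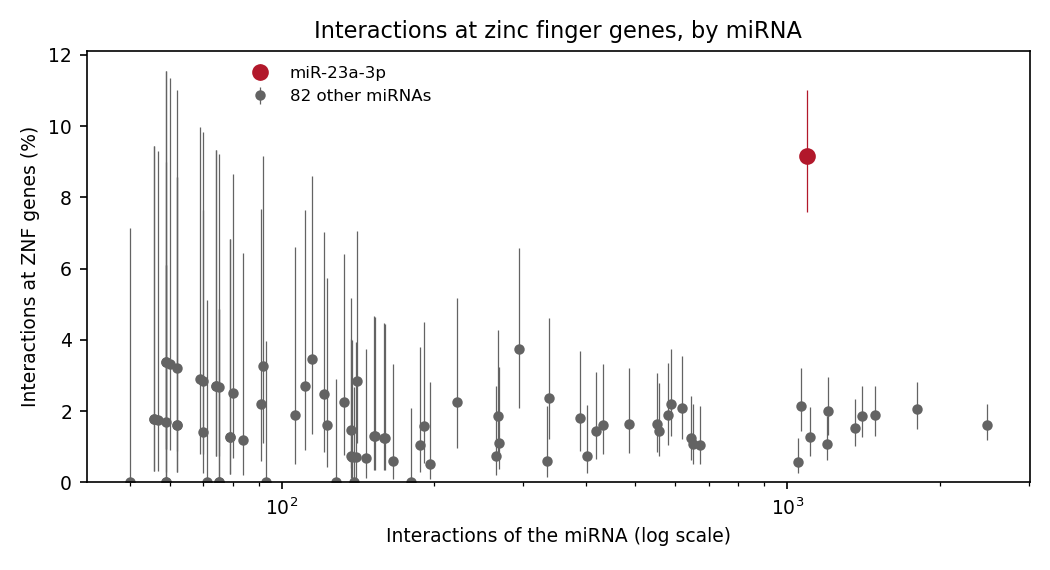
Share of interactions at ZNF genes (percent, vertical axis) against the number of interactions of the miRNA (log scale, horizontal axis) for the 83 miRNAs with at least 50 interactions, with 95% Wilson intervals. miR-23a-3p, in red, lies at 9.16% and the other 82 miRNAs, in grey, at 0 to 3.74%.

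The ZNF interactions of miR-23a-3p differed in kind from those of other miRNAs at ZNF genes. Of the 100, 75 lay in a region labelled wholly or partly as coding sequence (CDS), against 173 of 505 (34.3%) for other miRNAs. An 8mer was the strongest match in 70 of 100, against 26 of 505 (5.15%), and any canonical match (8mer, 7mer-m8, 7mer-A1, 6mer or offset 6mer) in 86 of 100, against 29.9%. They were also read more often. Of the 100, 25 had at least 2 chimeric reads, against 20 of 505 (3.96%), and together they held 147 of the 1203 reads of miR-23a-3p (12.2%). Chromosome 19 held 59 of them and chromosome 7 another 25.

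A pair of similar duplex patterns recurred at these genes. A pattern is the order of paired and unpaired positions on both strands and does not give the target's bases. The most frequent pattern occurred 44 times, 38 of them at 23 different ZNF genes, and a close variant occurred 15 times, 12 of them at 11 ZNF genes. Apart from these, no pattern of miR-23a-3p occurred more than 3 times among 1019 distinct patterns, and the most frequent pattern of any other miRNA occurred 22 times. The miRNA strand of both recurrent forms is shown with the bases predicted to pair in capitals, because the gap and the block after it recur across genes.
Recurrent duplex 1: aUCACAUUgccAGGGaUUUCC
Recurrent duplex 2: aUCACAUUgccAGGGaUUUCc
In both, the seed was fully paired, positions 9 to 11 were open, and positions 12 to 15 and 17 to 20 were paired. In all, 81 interactions of miR-23a-3p (7.42%) had Watson–Crick pairs throughout positions 2 to 8 and 12 to 15 and were open at 9 to 11. Other miRNAs had this pattern in 135 of 31620 (0.427%), and duplexes with a G:U pair at these positions were not counted. ZNF genes held 64 of the 81, and 12 lay outside any named gene (8 of those on chromosome 19). The remaining 5 were at ABCA11P, LOC441666, MKLN1, MTR and NFXL1, named after their values were seen. The predicted minimum free energy (MFE) of the first form was −24.4 to −22.2 and that of the second −21.6, where a lower value is a more stable duplex. The file names no unit for MFE, and the study gives energies of this kind in kcal/mol.

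Sites in the same gene repeated at a fixed spacing. A C2H2 zinc finger with its linker is usually 28 residues long, so successive fingers are encoded 84 nt apart. For each gene the distance was taken between neighbouring miR-23a-3p matches that pair with all of positions 2 to 8 (8mer or 7mer-m8). ZNF genes gave 41 such distances over 21 genes, of 82 to 1761 nt, and 29 of them were exact multiples of 84 nt. Where both sites were in CDS, 25 of 30 were exact multiples. Distances of 1 and of 3 repeats were the most frequent, with 9 and 8 cases. No other miRNA had a pair of such matches in a single ZNF gene. At genes outside the ZNF group the other miRNAs had 48 such distances, of 0 to 619232 nt. Multiples of 84 nt were 2 of the 48, a count in which a distance of 0 nt is included. These genes were not chosen for zinc finger repeats, so this is not a like comparison.

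ZNF92, on chromosome 7, showed the pattern most fully, with 7 interactions, 19 reads and an 8mer in every region, all in CDS. Counted from its first site, the 8mers lay at 0, 84, 504, 588, 672, 756 and 840 nt, with 1, 1, 1, 1, 6, 6 and 3 reads. ZNF708, on chromosome 19, had 5 CDS 8mers at 0, 252, 504, 756 and 1008 nt, a step of 3 repeats each time, with 2, 1, 2, 2 and 2 reads. ZNF626 had 4 at 0, 84, 252 and 504 nt, ZNF493 had 3 at 0, 336 and 924 nt, ZNF726 had 3 at 0, 672 and 924 nt, and ZNF737 had 3 at 0, 84 and 168 nt. In ZNF100 the spacing broke, with sites at 0, 84 and 250 nt. Over these 7 genes, 20 of the 21 sites beyond the first lay at a multiple of 84 nt. LOC441666, which is outside the ZNF group by its symbol alone, had 3 intronic 8mers, of which 2 were 84 nt apart. Whether it holds zinc finger sequence was not examined.

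**Figure D2:**
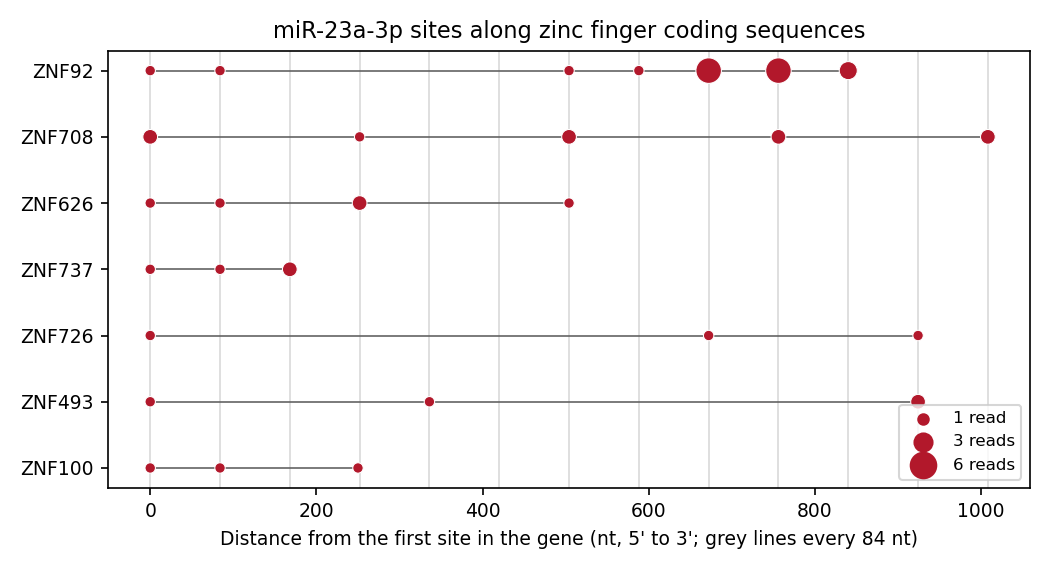
miR-23a-3p 8mer and 7mer-m8 sites in the CDS of the 7 ZNF genes with at least 3 of them, by distance from the first site in the direction of transcription (nt, horizontal axis), with dot area in proportion to chimeric reads. Grey lines mark multiples of 84 nt, and 20 of the 21 later sites fall on a line, the exception being the last site of ZNF100.

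The ZNF genes named next were chosen for their many miR-23a-3p interactions, which raises the share of miR-23a-3p among all interactions there. At ZNF92, miR-23a-3p accounted for 7 of 13 interactions of all miRNAs, at ZNF708 for 5 of 9, at ZNF493 and ZNF626 for 5 of 8, at ZNF737 for 3 of 4 and at ZNF117 for 5 of 11. Over all genes with a symbol it accounted for 756 of 21961 (3.44%). Genes of this family are close copies of each other and reads were kept only where they had a single place in the genome, so the gene to which a given ZNF read was assigned is uncertain, and sites identical between copies would be missed.

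Pairing along miR-23a-3p was high in the seed and again at positions 12 to 15, and fell towards the 3′ end. The authors forced pairing at a seed match where a region held one, so pairing in the seed also reflects the motif search. Each position was tested by Fisher's exact test (two-sided) for each of the 83 miRNAs against all other interactions, with Benjamini–Hochberg (BH) adjustment over the whole family of tests. Such differences were common, since 57.7% of tests over all miRNAs and positions passed the adjusted p of 0.05, and 17 of 20 positions passed for miR-23a-3p (9 higher, 8 lower). Position 2 was paired in 73.4% of miR-23a-3p interactions (70.7 to 75.9%) and 56.2% of others (BH-adjusted Fisher's p = 1.7e-29). Position 14 was paired in 86.9% (84.8 to 88.8%) and 67.6% (adjusted Fisher's p = 7.4e-46), which was the third highest share of the 83 miRNAs. Position 6, in the middle of the seed, was lower, at 74.5% against 82.6% (adjusted Fisher's p = 4.7e-10). From position 16 onward every position was lower, ending with position 21 at 27.9% (25.4 to 30.7%) against 58.7% (adjusted Fisher's p = 1.5e-88). Position 21 is the last base of miR-23a-3p but lies inside longer miRNAs, so there the comparison is not of like positions. Shorter miRNAs lack it, which left 30482 other interactions. Over positions 12 to 15 the mean share paired was 80.0% for miR-23a-3p and 64.9% for the others, and over positions 17 to 20 it was 52.4% and 72.1%. Over the seed the means were 76.4% and 75.4%. The relative miR-23b-3p had 79.8% over positions 12 to 15 and 41.7% over positions 17 to 20 in its 42 interactions. G:U pairs count as paired here, and miR-23a-3p used them at positions 13, 14 and 15 in 14.4, 15.2 and 12.2% of interactions.

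Zinc finger sites and all other sites had different profiles. At ZNF genes, positions 9, 10 and 11 were paired in 12, 16 and 14 of the 100 interactions and position 16 in 18, while positions 17 to 20 were paired in 90.5% on average. In the other 992 interactions, positions 9 to 11 were paired in 66.0% and positions 17 to 20 in 48.6%. At positions 12 to 15 both were high, with 93.8% at ZNF genes and 78.7% elsewhere. Averaged per interaction over positions 17 to 20, miR-23a-3p differed from other miRNAs by −23.1 percentage points without ZNF genes and by −19.3 points (Newcombe interval −22.4 to −16.4) with them. That interval treats each interaction's mean over the positions as a single yes-or-no outcome, so it is only approximate.

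**Figure D3:**
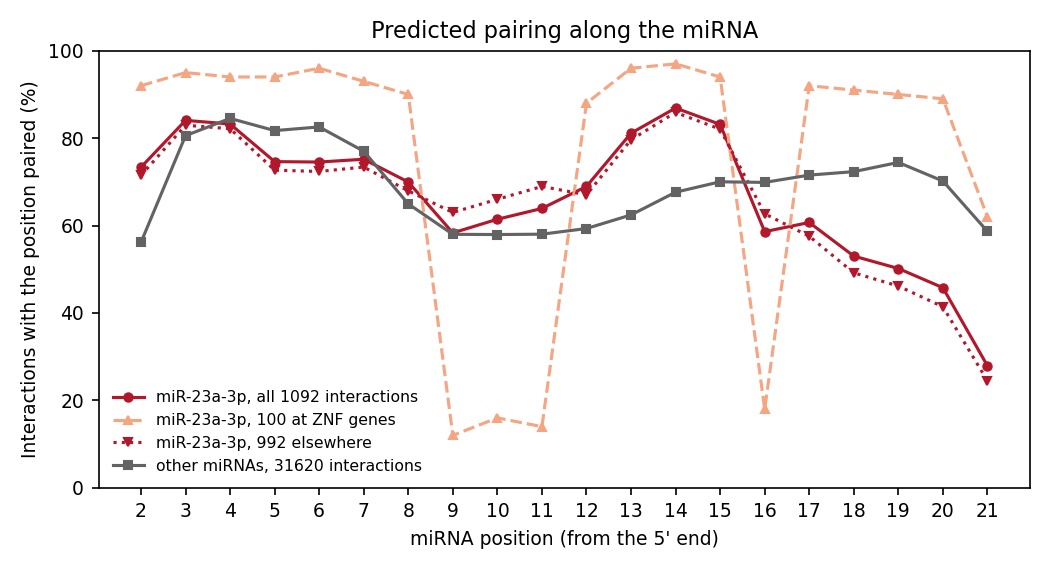
Share of interactions (percent, vertical axis) with each miRNA position paired in the predicted duplex (position from the 5′ end, horizontal axis), for miR-23a-3p as a whole, at ZNF genes and elsewhere, and for other miRNAs. miR-23a-3p peaks at position 14 (86.9%) and ends at 27.9% at position 21, whereas its 100 ZNF interactions are nearly unpaired at positions 9 to 11 and 16 and paired at 17 to 20.

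The miRNAs whose profile over positions 2 to 20 was most like that of miR-23a-3p were miR-96-5p (r = 0.77, 59 interactions), miR-28-5p (r = 0.77, 59) and miR-423-5p (r = 0.76, 70). These are correlations across 19 positions of the same pooled table, compared over 78 miRNAs whose median r was 0.29, and positions are not independent of each other. The cluster partner miR-24-3p followed with r = 0.73 over 152 interactions.

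Seed matches were shifted towards the 8mer and its mismatched form. Over all miRNAs and match types, 12.3% of tests passed, and for miR-23a-3p 3 of 22 match types were higher and 3 lower. An 8mer was present in 170 of 1092 regions (15.6%, 13.5 to 17.8%), against 6.41% for other miRNAs (BH-adjusted Fisher's p = 1.0e-22), the fourth highest share of 83. Without ZNF genes it was 10.1% against 6.43% (adjusted Fisher's p = 4.7e-04). The ZNF group was picked after its values had been seen, so this p is no independent test. The group goes by gene symbol, so the 12 sites of the recurring pattern without a gene symbol and the 5 at another gene stay in this share. The 8mer with 1 mismatch was also higher, at 8.15% against 3.91% (adjusted Fisher's p = 3.0e-08), as was the 6mer-A1, a 6-base match that includes the A facing position 1, at 3.30% against 1.69% (adjusted Fisher's p = 0.0049). The 7mer-m8 was lower, at 4.49% against 7.68% (adjusted Fisher's p = 6.8e-04), as were the 6mer, at 3.21% against 5.84% (adjusted Fisher's p = 0.0016), and regions with no seed match, at 8.61% against 15.3% (adjusted Fisher's p = 5.6e-09).

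The canonical share as a whole did not pass the test. It was 31.7% (346 of 1092) for miR-23a-3p and 30.3% for other miRNAs, a difference of 1.35 percentage points with an interval of −1.39 to 4.21 (adjusted Fisher's p = 0.66). Without ZNF genes the sign turned, with 26.2% (260 of 992) against 30.4% (adjusted Fisher's p = 0.042). The ZNF group was picked after its values had been seen, and 86 of its 100 interactions were canonical. Leaving it out lowers the share by construction, so this p is no independent test. Without the 6mers, counting only 8mer, 7mer-m8 and 7mer-A1, miR-23a-3p was higher by 5.80 points (adjusted Fisher's p = 1.1e-04).

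**Figure D4:**
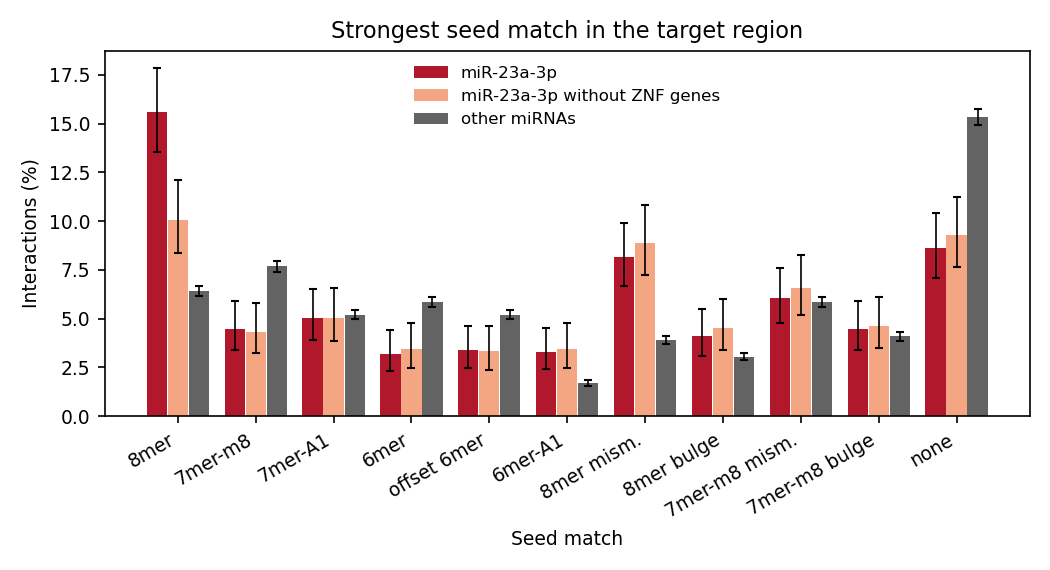
Share of interactions (percent, vertical axis) by the strongest seed match in the target region, for miR-23a-3p, miR-23a-3p without ZNF genes and other miRNAs, with 95% Wilson intervals (mism. stands for mismatch). The 8mer stands at 15.6% for miR-23a-3p, 10.1% without ZNF genes and 6.41% for other miRNAs, and no match at 8.61% for miR-23a-3p and 15.3% for other miRNAs.

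Mismatched seeds of miR-23a-3p broke most often at position 5. Of 334 seed matches with a mismatch, 114 (34.1%) had it at position 5, against 21.1% of 9422 for other miRNAs. The neighbouring positions 4 and 6 held 12.3 and 15.3%, against 20.2 and 20.5% for other miRNAs, position 7 held 18.9% against 15.2%, and position 2 was the rarest with 6.29% against 6.89%. At position 5, where miR-23a-3p has C, the target had A in 48, U in 46 and C in 20. Only 18 of the 334 mismatches (5.39%) were G:U pairs, against 16.2% for other miRNAs, and the seed of miR-23a-3p has no G and has U only at its ends. Of 176 matches with a bulged miRNA base, the base was at position 3 in 33, position 4 in 46, position 5 in 51 and position 6 in 46. None was at position 2 or 7, which allows a share of up to 1.70% at each, against 7.48 and 14.4% of 4276 for other miRNAs. Positions 7 and 8 of miR-23a-3p are the same base, so a bulge at 7 cannot be told apart from a bulge at 8. These shares are descriptions with no test.

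Auxiliary pairing was compared between imperfect and perfect seeds. The 335 mismatched or bulged 7mers and 8mers had 8.10 ± 2.30 (SD over interactions) paired positions from 9 onward, and the 274 perfect ones had 7.87 ± 2.34, a difference of 0.23 positions (permutation test, 100000 resamples, two-sided p = 0.23). Without ZNF genes the means were 8.09 and 7.53 over 329 and 193 interactions, and the difference of 0.56 passed the test (permutation p = 0.012). The ZNF group was picked after its values had been seen, so this p is no independent test. MFE was lower for canonical matches than for regions with no seed match, with means of −21.2 ± 4.05 and −16.8 ± 4.43 over 346 and 94 interactions, a difference of −4.36 (permutation p = 2.0e-05, the smallest that the resamples can give). The seed pairs enter both measures, since MFE was computed from the same target regions with pairing forced at seed matches. Over all interactions the median MFE was −18.5 for miR-23a-3p and −19.1 for other miRNAs.

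The authors sorted duplexes into 7 classes by k-means on where they were paired. Class preferences were common, with 48.7% of tests over all miRNAs and classes passing. Class 1, whose duplexes are nearly unpaired at the miRNA 3′ end, held 377 of 1092 miR-23a-3p interactions (34.5%, 31.8 to 37.4%), against 12.5% for other miRNAs (BH-adjusted Fisher's p = 1.2e-72), the sixth highest share of 83. Within it, positions 12 to 15 were paired in 79.5% and positions 17 to 20 in 5.44% of miR-23a-3p interactions. Classes 3, 5A and 6 were lower, at 3.11% against 13.1%, 5.22% against 11.1% and 10.7% against 20.0% (adjusted Fisher's p = 3.0e-28, 2.3e-10 and 6.6e-15). Class 5B held 16.5% against 14.1% and did not pass (adjusted Fisher's p = 0.055). It was the class of the zinc finger sites, with 81 of its 180 members at ZNF genes and 95 of them 8mers. Without ZNF genes class 5B held 9.98% for miR-23a-3p against 14.1% for others (adjusted Fisher's p = 6.8e-04), and class 1 stood at 37.4%. The ZNF group was picked after its values had been seen, and 81 of its 100 interactions were in class 5B. Leaving it out lowers class 5B by construction, so this p is no independent test. Canonical matches made up 67.8% of class 5B and 113 of the 377 in class 1. Class 4, the class without seed pairing, held none of its 113 as its construction implies.

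**Figure D5:**
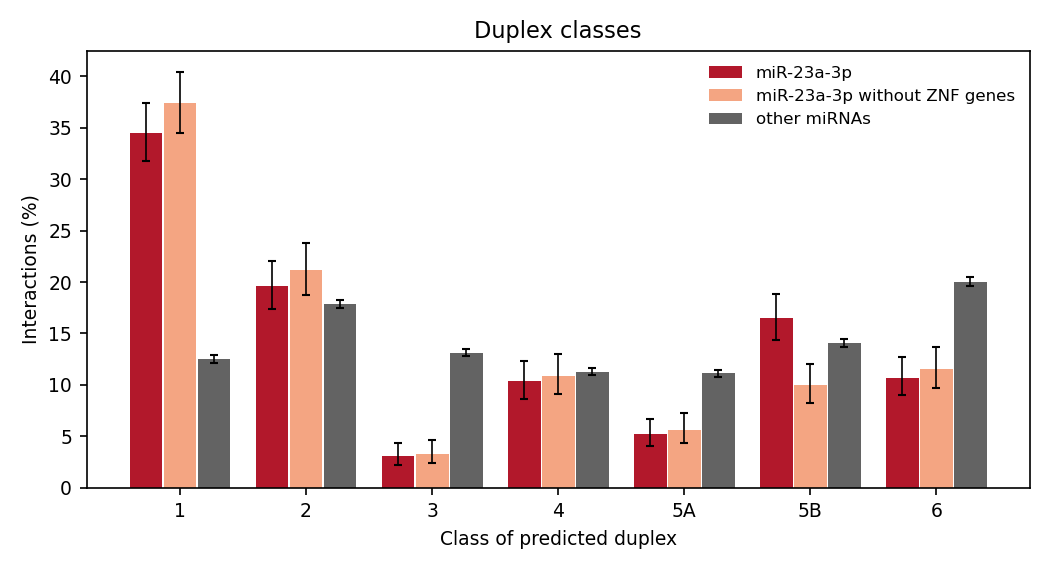
Share of interactions (percent, vertical axis) in each of the 7 duplex classes for miR-23a-3p, miR-23a-3p without ZNF genes and other miRNAs, with 95% Wilson intervals. Class 1 holds 34.5% of miR-23a-3p and 12.5% of other interactions, and class 5B holds 16.5% of all miR-23a-3p interactions and 9.98% of those without ZNF genes.

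Targets were spread over transcripts much as for other miRNAs. Over all miRNAs and 8 region labels, 9.64% of tests passed. A region can carry more than 1 label. Regions that include intron made up 40.8% of miR-23a-3p interactions and 40.3% of others, and deep intergenic regions 21.7% and 23.6% (adjusted Fisher's p = 0.94 and 0.48). Regions that include 3′UTR made up 13.3% (145 of 1092) and 14.4%, a difference of −1.17 points with an interval of −3.09 to 1.01 (adjusted Fisher's p = 0.65). Regions that include CDS were the only ones that passed, at 19% (207 of 1092) against 15.1% (adjusted Fisher's p = 0.013). Without ZNF genes, a group picked after its values had been seen, their share was 13.3% against 14.8% (adjusted Fisher's p = 0.52). The 8mers of miR-23a-3p were found in 70 of 207 regions with CDS (33.8%) and 31 of 145 with 3′UTR (21.4%), and without ZNF genes in 11 of 132 (8.33%) and 19 of 128 (14.8%). Within miR-23a-3p, canonical matches were more frequent in 3′UTRs than elsewhere, in 59 of 145 (40.7%) and 287 of 947 regions (30.3%; Fisher's exact p = 0.016, not adjusted). With regions labelled 3′UTR alone this no longer passed (8.05 points, Fisher's exact p = 0.078).

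Most matches lay near the ligation point. Of 346 canonical matches of miR-23a-3p, 275 (79.5%) began in the first 37 of the 75 target positions, against 82.9% for other miRNAs, a difference of −3.45 points with an interval of −8.07 to 0.55 (BH-adjusted Fisher's p = 0.44, with 4.82% of miRNAs passing in this family). The median start was position 24 for miR-23a-3p and 22 for the others.

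Regions that were read repeatedly carried canonical matches more often. Of the 1092 interactions, 1023 had a single read, 48 had 2 and 21 had 3 or more. At least 2 reads supported 69 of 1092 (6.32%, 5.02 to 7.92%), against 4.96% (4.73 to 5.20%) for other miRNAs. Canonical matches were present in 50 of the 69 (72.5%, 61.0 to 81.6%) and in 296 of the 1023 single-read regions (28.9%, 26.2 to 31.8%; Fisher's exact p = 7.4e-13, not adjusted). Without ZNF genes, a group picked after its values had been seen, the shares were 59.1% (26 of 44) and 24.7%. The p there (Fisher's exact p = 3.5e-06) is no independent test.

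Of the 12 most read interactions at a gene, with ties at 3 reads settled by lower MFE, 9 were 8mers, 11 were canonical, 8 were in a region labelled wholly or partly CDS and 7 were at ZNF genes. In all, 13 interactions had 3 reads, of which 5 are among the 12. The miRNA strand of the most read sites outside ZNF genes, with paired bases in capitals, shows how they divide the miRNA between seed and 3′ end.
TUBB4B: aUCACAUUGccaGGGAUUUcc
RFFL: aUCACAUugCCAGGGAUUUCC
PDE3A: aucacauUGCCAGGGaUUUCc
HNRNPC: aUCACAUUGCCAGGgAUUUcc
ELOVL5: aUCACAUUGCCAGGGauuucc
TUBB4B encodes a beta-tubulin, a subunit of microtubules. Its CDS site at chr9:139257502-139257577 (hg18, as are all target coordinates here, with the counting from 0 or 1 not given in the sources used here) had 11 reads, the most of any miR-23a-3p interaction, with an 8mer at position 31 of the region and an MFE of −23.9. RFFL, a ubiquitin ligase of endosomes, had 4 reads in its 3′UTR at chr17:30360341-30360416, with a 7mer-A1, 12 paired positions from 9 onward and an MFE of −26.5. HNRNPC, an RNA-binding protein of nascent transcripts, had 3 reads in an intron at chr14:20777165-20777240, with a 7mer-m8 and an MFE of −26.2. The same place was found with miR-23b-3p. ELOVL5, an elongase of polyunsaturated fatty acids, had 3 reads in a region labelled CDS and 3′UTR at chr6:53241865-53241940, with an 8mer. There the miRNA was paired at every position from 2 to 15. PDE3A, a cyclic nucleotide phosphodiesterase, had 4 reads in an intron at chr12:20595716-20595791 without a seed match, and 21 other miRNAs were ligated to the same region. At the other 4 sites at most 1 other miRNA was found.

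The ZNF genes among the 12 were read at ZNF141 (6 reads, chr4:357722-357797, exon of no class, MFE −28.2), at 3 sites of ZNF92 (6, 6 and 3 reads) and at ZNF273 (4 reads, chr7:64025877-64025952, CDS). The others were ZNF718 (3 reads, chr4:145637-145712, CDS) and ZNF430 (3 reads, chr19:21032627-21032702, labelled CDS and 3′UTR). All 7 sites held an 8mer, and 5 of them were in class 5B.

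Of the 5 lowest energies, 1 had a canonical match, and each rested on a single read. The miRNA strand at USP13 and UBR3 shows duplexes that run through the 3′ end.
USP13: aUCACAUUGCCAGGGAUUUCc
UBR3: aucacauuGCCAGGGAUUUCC
USP13, a deubiquitinase, had the lowest MFE of miR-23a-3p (−31.0) in an intron at chr3:180909929-180910004, with positions 2 to 20 all paired and a bulged 6mer as its match. TENM2, a teneurin adhesion protein of neurons, had −29.8 in CDS with an 8mer at chr5:167559462-167559537. UBR3, a ubiquitin ligase, had −29.3 in a region labelled CDS and 5′UTR at chr2:170507248-170507323. It had 13 paired positions from 9 onward and none in the seed, although the motif search had found a bulged 6mer-A1 elsewhere in the region. ZBTB16, a transcription factor with zinc fingers, had −29.2 in an intron at chr11:113470694-113470769 with no seed match and 13 paired auxiliary positions. FAF1, a cofactor of protein degradation, had −29.1 in an intron at chr1:50962953-50963028 with a 6mer-A1.

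The 756 interactions with a gene symbol fell on 634 genes, of which 552 had a single interaction, 57 had 2 and 25 had 3 or more. Of these 25, 13 were ZNF genes. Outside ZNF genes, ARHGAP5, a GTPase-activating protein, had 5 interactions of 57 by all miRNAs, 3 of them intronic, 1 in CDS and 1 in 3′UTR, each with 1 read and 1 of them canonical. DLG1, a scaffold of cell polarity, had 4 of 13, all intronic, with 1 8mer. PDE3A, FAF1 and PLCB1 had 3 intronic interactions each. PLCB1, a phospholipase C, is bound by many miRNAs in the table, and miR-23a-3p supplied 3 of its 69 interactions, none of them canonical.

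Some published targets were among the interactions. Of 40 genes listed as targets of miR-23a or miR-23b from general knowledge, 28 had an interaction with any miRNA and 5 with miR-23a-3p, which supplied 8 of their 114 interactions (7.02%), against 3.44% over all genes. Over all genes with any interaction, 634 of 7069 were reached by miR-23a-3p. TGFBR2, the type II TGF-beta receptor, had 3 interactions in its 3′UTR, with 1 read each. An 8mer lay at chr3:30710444-30710519, a mismatched 8mer at chr3:30708349-30708424 and a mismatched 7mer-m8 at chr3:30709527-30709602. CCNG1, cyclin G1, and MET, the hepatocyte growth factor receptor, each had a single read at an 8mer in the 3′UTR, at chr5:162803452-162803527 and chr7:116225412-116225487.

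Other gene groups are given with their share of miR-23a-3p among all interactions, to be read against the same 3.44%. Of 25 genes of TGF-beta and BMP signalling, 3 had miR-23a-3p interactions, in 5 of 92 interactions (5.43%), which were TGFBR2, the activin receptor ACVR1B (offset 6mer, CDS) and the BMP receptor BMPR1A (mismatched 7mer-m8, intron). Of 28 tubulin and actin cytoskeleton genes, 3 were reached by 3 of 76 interactions (3.95%), and beside TUBB4B these were ACTN1, an actin cross-linker, and FLNA, a filamin with a CDS 6mer at an MFE of −28.7. Of 24 plasma protein genes, 5 were reached by 8 of 224 interactions (3.57%). ALB, albumin, AFP, the fetal counterpart of albumin, and APOB, the protein of low-density lipoprotein, had 2 interactions each, and A1BG and FGA had 1 each. Among these 8, the 7mer-m8 of A1BG was the only canonical match. Cholesterol and fatty acid genes, 32 in the list, had 3 of 188 (1.60%), at IDI1 and DHCR7, enzymes of sterol synthesis, and at NPC1, a cholesterol transporter. The list of the cell cycle gave CCNG1 alone of 27 genes, in 1 of 71 interactions (1.41%), and that of the miRNA pathway, with 2 of 90 (2.22%), gave DICER1, which makes mature miRNAs, and TNRC6B, a silencing partner of AGO. Of 15 neuronal genes none was reached by miR-23a-3p and 1 by any other miRNA.

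Interactions at marker genes of cell types were counted. Such counts are not expression and are no test of the labelled cell type, and no share over all human genes was available to set beside them. Of 14 hepatocyte and hepatoma genes, 13 were ligated to some miRNA in 243 interactions, and 4 to miR-23a-3p (ALB, AFP, APOB and GPC3, an oncofetal proteoglycan). miR-23a-3p supplied 7 of the 243 (2.88%), against 3.44% over all genes with a symbol. Of 12 immune, fibroblast and endothelial marker genes, 0 were ligated to any miRNA.

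miR-23b-3p had 42 interactions and 42 reads, and miR-23c had none, which allows up to 3 of 32712. No difference between miR-23a-3p and miR-23b-3p passed the test among 3 compared, and the intervals were wide. Class 1 held 34.5% of miR-23a-3p and 40.5% of miR-23b-3p interactions, a difference of −5.95 points with an interval of −21.2 to 7.78 (adjusted Fisher's p = 0.75). Canonical matches made up 31.7 and 33.3% (−1.65 points, −17.0 to 11, adjusted Fisher's p = 0.87). Positions 17 to 20 were all unpaired in 30.6 and 35.7% (−5.13 points, −20.5 to 7.90, adjusted Fisher's p = 0.75), against 9.75% for all miRNAs other than miR-23a-3p. In that last share, positions that a shorter miRNA lacks count as unpaired, and 31443 of the 31620 other interactions have a position 17. An 8mer was found in 15.6% of miR-23a-3p regions and in 9 of the 42 miR-23b-3p regions (21.4%, 11.7 to 35.9%), a difference that was not tested. The 2 ZNF interactions of miR-23b-3p were an 8mer in the CDS of ZNF92 and an 8mer in a region of ZNF430 labelled CDS and 3′UTR. Of its 23 genes, 8 were shared with miR-23a-3p, which is 34.8% of its own genes and 1.26% of those of miR-23a-3p. The relatives differ at 1 position over the first 21 bases, and a read that matched several members of a family was given to one of them at random, so some reads of either may belong to the other.

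The cluster partners shared a smaller part of their own genes with miR-23a-3p than miR-23b-3p did, but miR-23b-3p had only 23 genes. This difference was not tested, and reads that fitted both relatives were assigned at random. Over all genes with any interaction, 634 of 7069 were reached by miR-23a-3p. miR-27a-3p had 1066 interactions at 630 genes, of which 97 were also reached by miR-23a-3p (15.3% of the genes of miR-23a-3p and 15.4% of those of miR-27a-3p). miR-24-3p shared 17 of its 115 genes (2.68% of the genes of miR-23a-3p and 14.8% of its own). The same mature miR-24-3p is also made from a gene on chromosome 9, so its reads cannot be assigned to the chromosome 19 cluster alone. At the level of regions, 100 of 1092 miR-23a-3p regions overlapped a region of another miRNA on the same strand, 15 of them one of miR-27a-3p, 5 one of miR-23b-3p and 2 one of miR-24-3p, which is 1.37, 0.458 and 0.183% of the regions of miR-23a-3p and 1.41, 11.9 and 1.32% of those of each partner. Leaving out every region shared with another miRNA kept 992 of 1092 miR-23a-3p interactions and 27500 of 31620 interactions of the other miRNAs. The shared part was thus smaller for miR-23a-3p than for the others, a difference that was not tested. At 30 miR-23a-3p regions at least 3 other miRNAs were found, and the most, 26, were at a region of the mitochondrial chromosome. That chromosome held 9 of 1092 miR-23a-3p interactions (0.824%, 0.434 to 1.56%) and 2.41% (2.25 to 2.59%) of the others.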

How the data were processed

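AGO-bound RNA was measured in 31 libraries. Per the labels, the authors processed reads with CASAVA 1.8.2 and Bowtie (version not given in the sources used here) on hg18. At most 1 mismatch was allowed in the start of the miRNA, reads matching several family members went to a randomly chosen one, target fragments of at least 18 nt were kept if they had a unique genomic match, and PCR duplicates were merged. The authors deposited a single pooled table, and N is a deposited count of individually cloned chimeric reads, not normalized. The depth per library is not in the table. MFE is a deposited score from RNAhybrid, with no unit named in the table, for which the authors forced pairing at seed matches. Target region starts, ends and seed positions were used as deposited.

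Each interaction counted 1 time. The duplex map was read from position 2, and all 1420 G:U pairs of miR-23a-3p fell on G or U of its RefSeq sequence. Gene IDs of miR-23a-3p matched RefSeq in 631 of 634 cases. Shares were tested by Fisher's exact test for miRNAs with at least 50 interactions, and means by permutation with 100000 resamples, or by exact enumeration with fewer than 10 values. Limits for a count of 0 take 3 counts of the total. Tests were checked on simulated data. Fisher's and permutation tests were run with scipy 1.17.1 in Python 3.11.15, tables with pandas 2.3.3 and numpy 2.4.6, and plots with matplotlib 3.10.9.

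The members, lists and tests were chosen with earlier results of these data known, and the ZNF group and the 84 nt spacing after seeing the values. Named were the 12 most read interactions at a gene, up to 12 genes with at least 3 interactions, the 5 with the lowest MFE, up to 4 genes per list, the relatives and cluster partners, and the 3 miRNAs with the most similar profile. Alternatives weighted interactions by reads, kept regions with at least 2 reads, 1 interaction per gene or only 3′UTR labels, changed the background, and counted only Watson–Crick pairs. Others left out 6mers or shared regions, took the first 25 positions, or left out ZNF genes. Target sequences were not used here. Some members of the gene lists are not reported here.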

Additional observations from a re-analysis of the deposited data

How the results depend on the processing

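No paired analysis was possible because the pooled table assigns no interaction to a library, so replicate numbers could not be used. Of 95 alternatives to the 13 main comparisons, 76 kept their direction and side of the threshold, or moved by less than the interval where there was no test. The class 1 share of miR-23a-3p stayed above that of other miRNAs in all 8 alternatives, by 20.6 to 24.9 points. Keeping only regions with at least 2 reads changed most: the canonical difference from other miRNAs was 26.9 points (adjusted Fisher's p = 2.6e-04), the 3′UTR difference 4.85 points (adjusted Fisher's p = 0.64), pairing at positions 12 to 15 higher by 24.7 points and at 17 to 20 different by −10.6 points. There the canonical share within 3′UTRs differed from elsewhere by −0.33 points (Fisher's exact p = 1.00), auxiliary pairing of imperfect seeds by −0.39 positions (exact permutation p = 0.68, 7 against 49 interactions) and MFE by −0.72 (exact permutation p = 0.67, 50 against 2). Weighted by reads, the canonical difference was 4.33 points.

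With 1 interaction per miRNA and gene, the canonical difference was −1.69 points (adjusted Fisher's p = 0.58) and that of auxiliary pairing 0.44 positions (permutation p = 0.038). Without 6mers the canonical difference was 5.80 points from other miRNAs and 1.28 points from miR-23b-3p (adjusted Fisher's p = 1.00). With the 3′UTR label alone the difference within miR-23a-3p was 8.05 points. With only Watson–Crick pairs, positions 12 to 15 were higher by 11.8 points. Among 3′UTR labels only 3 miR-23b-3p interactions remained, and miR-23a-3p was then higher by 3.22 points in class 1 and by 29.7 points in unpaired positions 17 to 20 (adjusted Fisher's p = 1.00 and 0.85). Without ZNF genes, an alternative chosen after seeing the data, the canonical difference was −4.14 points, that at positions 17 to 20 −23.1 points and that of auxiliary pairing 0.56 positions.

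Of 87 alternatives to 11 further shares, 66 kept direction and side. With at least 2 reads, differences were larger for the 8mer (42.1 points), CDS (25.2) and class 5B (29.1, adjusted Fisher's p = 3.0e-06), while the calls of the 7mer-m8, the 6mer and no seed match were lost (adjusted Fisher's p = 0.69, 0.16 and 0.089). Among 3′UTR labels the same 3 calls were lost (0.65, 0.19 and 0.29), as were those of the 6mer-A1 (0.45), the mismatched 8mer (0.73), class 5A (0.19) and class 6 (0.21). Weighted by reads, the 8mer and CDS differences were 12.9 and 6.72 points. The 6mer-A1 and the mismatched 8mer reversed with at least 2 reads (−0.21 and −2.01 points, adjusted Fisher's p = 1.00 for both). Class 5B reversed with 1 interaction per gene (−0.89 points), among 3′UTR labels (−1.01) and without ZNF genes (−4.07), and CDS without ZNF genes (−1.53). The CDS call was also lost with 1 interaction per gene (1.06 points, adjusted Fisher's p = 0.74) and without shared regions (2.66 points, adjusted Fisher's p = 0.17). The causes were not tested. Single reads support 1023 of 1092 interactions, which limits statements on any single site.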
